A study of Xenopus laevis with 4 samples.

Results

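The genes described here encode the translation initiation factors (eIFs) and elongation factors (eEFs) of *Xenopus laevis*, with the kinases and binding proteins that carry their names. The members are gene models whose symbol, without its L or S ending, starts with *eif* and a digit or with *eef1* or *eef2*. This rule uses names only, but it was set with earlier results of these data known. This gave 72 of 45098 models, under 41 distinct names. Of these, 53 averaged 10 or more normalized reads over both groups and entered the comparisons, out of 11272 such models in all. RNA had been sequenced from whole embryos at the early gastrula stage (stage 10.5). The 2 Gcn5-AS samples came from embryos that had received 0.8 ng of Gcn5-AS, a stabilized DNA oligonucleotide directed against *gcn5* mRNA, at the 1-cell stage. The product of *gcn5*, listed as *kat2a*, acetylates histones as part of the SAGA co-activator. The 2 control samples came from water-injected embryos of the same stage, and every sample pooled 10 embryos. The embryos came from *in vitro* fertilization with outbred frogs.

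The oligonucleotide is shown because it is the agent by which both groups differ. It has 18 bases with 11 modified linkages, and capitals mark the 7 bases in its middle that are joined by ordinary DNA linkages.
Gcn5-AS: tcaaaCACAAGCcgggtt

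Protein synthesis starts when eIF2 brings the initiator tRNA to the small ribosomal subunit, on which eIF3 serves as a scaffold. The eIF4 proteins bind the mRNA cap, unwind the leader and recruit this subunit, and eIF1, eIF1A, eIF5B and eIF6 act in start codon choice and in joining of the large subunit. Elongation factors then deliver aminoacyl-tRNAs (eEF1) and move the ribosome along the message (eEF2). Early frog embryos inherit large stores of maternal mRNA and ribosomes, so that translation runs before the embryo's own genes are active.

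The Gcn5-AS libraries held 3679948 reads on genes (X) and 3610092 (Y), and the controls 4093025 (X) and 2351039 (Y). X and Y are only names, and neither can be matched to replicate 1 or 2. Levels are normalized reads, that is, reads divided by the size factor of the library, and they are not corrected for transcript length. Gastrula markers were present in all 4 libraries (*gsc.L*, *mix1.L*, *sox17a.L* and *t.S* at 66.5 normalized reads or more), whereas the muscle genes *actc1.L* and *myh6.L* had at most 4.29. Some germ layer markers moved with the groups. The mesoderm gene *eomes* rose at both homeologs (log2 fold changes, Gcn5-AS over control, of 1.97 for L and 1.71 for S). The endoderm gene *sox17b.1.S* also rose (log2 fold change of 1.21). Their adjusted limma-voom p was 0.0305, 0.022 and 0.0573 in this order. Both *gsc.S* and *mix1.L* rose and passed the test as well (adjusted limma-voom p of 0.014 and 0.0243). The mesendoderm genes *gsc.L* (270.7 and 206.4 in Gcn5-AS libraries against 66.5 and 82.0 in controls) and *mix1.S* (860.1 and 434 with Gcn5-AS against 170.5 and 149.3 in controls) rose, and the epidermal gene *krt12.S* fell (0 and 5.604 with Gcn5-AS against 38.1 and 41.7 in controls), with adjusted limma-voom p of 0.0132, 0.00704 and 0.0228. Other markers did not pass the test, among them the mesoderm gene *t* (*t.L* at 114.0 and 84.1 with Gcn5-AS against 126.5 and 123.7 in controls, and *t.S* at a log2 fold change of 0.07), both *sox17a* homeologs, *sox17b.1.L*, *nog.L* and *grhl3.L*. The part of the markers in the differences of the translation factors was not tested. Normalized reads of the targeted *kat2a.L* were 52.9 and 62.6 in Gcn5-AS libraries against 50.4 and 103.5 in controls. For *kat2a.S* they were 13.7 and 35.5 with Gcn5-AS against 27.9 and 45.7 in controls. Neither *kat2a* homeolog passed the limma-voom test (adjusted p of 0.742 and 0.445), and the groups overlapped at both. The 95% intervals of the log2 fold change ran from −1.11 to 0.58 for L and from −1.70 to 0.35 for S. By quantitative PCR the paper reported depletion of *gcn5* transcripts after this injection, and by chromatin immunoprecipitation less Gcn5 at promoters. It also described impaired involution, developmental arrest and signs of apoptosis in such embryos. The part of this arrest in the differences reported here was not tested. No label says whether a group's samples were independent clutches, so the p-values cover no more than the differences among these 4 samples, possibly technical ones. In whole embryos, less RNA per cell and fewer cells of a type cannot be told apart.

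To ask how messages for the translation machinery differed upon Gcn5 knockdown, reads per library were compared by limma-voom over all 11272 models, with Benjamini-Hochberg adjustment and a false discovery rate of 0.1. Most of the measured factors were lower in Gcn5-AS embryos, but the differences were modest against the spread between 2 libraries per group. Of the 53 measured models 40 had a log2 fold change (Gcn5-AS over control) below 0 and 13 above 0, with a median of −0.47. Over all models tested 49.0% were below and 51.0% above 0, with a median of 0.02. Only 2 factors passed the test, *eif4ebp2.S*, which rose, and *eif3s4.L*, which fell. That is 3.77% of the measured factors, against 8.63% of all models tested (4.46%, or 503, higher and 4.17%, or 470, lower). With scaling by total reads these calls were 19 higher and 171 lower, and no factor was called. The 2 were also the factors called by limma-trend (7.35% of all models). Just 1 of them was called among models with any read (3.18% of all called) and 1 with homeologs summed (7.18%). Among models with at least 50 mean reads no factor was called (11.4% of all). Neither of the 2 could be called there, since their mean counts were 41.0 and 39.6. At an unadjusted p under 0.05 there were 2 higher and 11 lower factors. All models held 11.8% higher and 10.2% lower at that level. The standard error of a factor's log2 fold change lay between 0.35 and 0.89, with a median of 0.41. A simulation of this comparison found 14 of 96 models set to change by a log2 fold change of 1 and 73 of 99 set to 2. In it 10730 models were unchanged, so fewer changed than were called in the data. The adjusted p depends on this number, so the shares found need not hold for these data.

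Both Gcn5-AS libraries lay below both controls in 28 of the 53 factors (52.8%), above them in 4 (7.55%), and overlapped the controls in 21. Among all models tested 51.4% did not overlap, 25.0% below and 26.3% above. Each model was also set against its own mean log2 level over the 4 libraries. The 53 factors then had medians of −0.40 (X) and −0.14 (Y) in the Gcn5-AS libraries, against 0.29 (X) and 0.22 (Y) in the controls. Over all models the 4 medians lay between 0.00 and 0.04. Both Gcn5-AS libraries were thus on the low side, and Gcn5-AS X stood further from the controls. The summed reads of the 53 factors differed less, with 5619 and 5024 normalized reads in Gcn5-AS libraries against 5887 and 5609 in controls. The difference between the sums and the median goes with the level of the models. Of the 9 factors with a mean count of at least 150, 4 were lower (median log2 fold change of 0.05), against 15 of 19 factors with a mean from 50 to under 150 (median −0.46) and 21 of 25 with a mean under 50 (median −0.55). Over all models the medians in these bands were 0.23, 0.07 and −0.06, so the median of the factors was the lower one in each band. In the same order 44.4%, 78.9% and 84% of the factors were lower, against 37.1%, 46.5% and 52.9% of all models. The median of 0.05 among the 9 is the value of *eif4g2.L*, whose sign flipped with scaling by total reads.

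**Figure D1:**
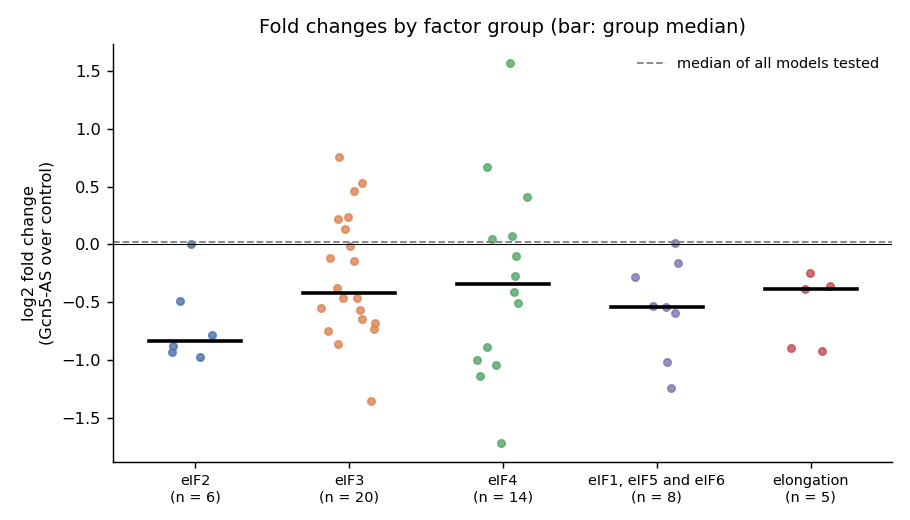
Log2 fold change (Gcn5-AS over control, y axis) of the 53 measured translation factor models by group (x axis). Each point is 1 model, black bars are group medians and the dashed line is the median of all models tested. Medians lie between −0.83 for the eIF2 group and −0.34 for the eIF4 group, all below the overall median of 0.02.

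Members that regulate or form eIF2 were mostly lower. Of the 14 models of the eIF2 group 6 were measured, 5 of them lower, with a median log2 fold change of −0.83. None was called by limma-voom or by limma-trend. Of the 6, 2 were lower at an unadjusted limma-voom p under 0.05, as were 10.2% of all models tested. The *eif2s3* gene encodes the GTP-binding subunit of eIF2. Its L homeolog had 56.3 and 43.9 normalized reads in Gcn5-AS libraries against 95.4 and 88.8 in controls (log2 fold change of −0.88 ± 0.39 SE, adjusted limma-voom p of 0.183). The S homeolog had 47.4 and 94.3 with Gcn5-AS against 66.5 and 64.6 in controls. The groups were apart for *eif2s3.L*, while for *eif2s3.S* 1 Gcn5-AS library was below and the other above both controls, and its fitted difference of 0.00 turned negative under every other scaling.

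The exchange factor eIF2B reloads eIF2 with GTP, and its catalytic subunit is encoded by *eif2b5*. Normalized reads of *eif2b5.S* were 23.4 and 27.1 with Gcn5-AS against 50.9 and 47.1 in controls (log2 fold change of −0.97 ± 0.43 SE, adjusted limma-voom p of 0.189). Both Gcn5-AS libraries were well below both controls. The subunit gene *eif2b3.L* had 6.87 and 11.2 with Gcn5-AS against 12.9 and 20.2 in controls, also without overlap (adjusted p of 0.509). Among the kinases that phosphorylate eIF2 and thereby slow initiation, *eif2ak1.L* (the heme-regulated kinase) had 8.93 and 6.54 with Gcn5-AS against 15.01 and 16.1 in controls, and *eif2ak4.L* (Gcn2, which senses uncharged tRNA) had 8.93 and 12.1 with Gcn5-AS against 11.8 and 22.9 in controls. These are small counts, and neither passed the test (adjusted limma-voom p of 0.444 and 0.681). The 8 eIF2-named models that were not measured were both homeologs of *eif2a*, *eif2b1* and *eif2b4*, with *eif2ak2.L* and *eif2d.S*.

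The scaffold eIF3 varied by subunit. Of its 21 models 20 were measured, 14 lower and 6 higher, and their median log2 fold change was −0.42. The called model was *eif3s4.L*, named *eif3g* in RefSeq, which encodes an RNA-binding subunit used in scanning. It had 17.2 and 29.0 normalized reads in Gcn5-AS libraries, from 25 and 31 reads, against 55.8 and 56.5 in controls, from 104 and 42 reads. Both Gcn5-AS values were well below both controls, and *eif3s4.L* fell 2.55-fold (log2 fold change of −1.35, 95% interval from −2.26 to −0.43, adjusted limma-voom p of 0.0815). The adjusted p was 0.464 without Gcn5-AS X, 0.572 without control X, 0.292 without control Y and 0.258 with scaling by total reads, so the call was lost in these settings. In the fits without 1 library the lone sample of a group is assumed to vary like the others. The S homeolog had 33.0 and 58.8 with Gcn5-AS against 57.9 and 36.3 in controls, with overlap. With the reads of both homeologs summed, *eif3s4* had 50.2 and 87.8 with Gcn5-AS against 113.6 and 92.8 in controls. The summed log2 fold change was −0.67 (95% interval from −1.47 to 0.14) and was not called (adjusted limma-voom p of 0.32).

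The other lower eIF3 models did not pass the test. The core subunit gene *eif3b* had 50.2 and 58.8 normalized reads in Gcn5-AS libraries against 85.8 and 83.4 in controls for the L homeolog. The S homeolog had 46.0 and 47.6 with Gcn5-AS against 94.9 and 61.9 in controls. Both homeologs were below both controls, with log2 fold changes of −0.64 and −0.75 (adjusted limma-voom p of 0.331 and 0.273). The partner subunit gene *eif3i* had 39.8 and 55.1 with Gcn5-AS against 67.0 and 92.8 in controls for L and 28.2 and 26.2 with Gcn5-AS against 30.6 and 44.4 in controls for S. The groups did not overlap for either homeolog, and the adjusted limma-voom p was 0.286 and 0.648. The subunit gene *eif3d.S*, whose product binds the cap of some mRNAs in human cells, had 91.4 and 124.2 with Gcn5-AS against 157.1 and 134.5 in controls (adjusted p of 0.478). Lower values without overlap were also seen at *eif3l.L* (39.2 and 33.6 with Gcn5-AS against 60.0 and 45.7 in controls), *eif3l.S* (15.1 and 14.9 with Gcn5-AS against 28.9 and 17.5 in controls) and *eif3j-like.S* (54.96 and 73.8 with Gcn5-AS against 85.8 and 104.9 in controls). At *eif3j-like.L* (16.5 and 21.5 with Gcn5-AS against 29.5 and 20.2 in controls) and *eif3k.S* (6.87 and 28.0 with Gcn5-AS against 21.4 and 25.6 in controls) the groups overlapped, and *eif3k.S* was low in Gcn5-AS X only.

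The higher eIF3 subunits were *eif3m*, *eif3h* and, by small amounts, *eif3a.L* and *eif3e.S*. The subunits encoded by *eif3m* and *eif3h* bind each other in the human complex. Normalized reads of *eif3m.S* were 173.8 and 272.7 in Gcn5-AS libraries against 128.7 and 129.1 in controls, above both controls in each library (log2 fold change of 0.75 ± 0.36 SE, adjusted limma-voom p of 0.227). The L homeolog had 231.5 and 196.2 with Gcn5-AS against 176.9 and 191.0 in controls, a smaller difference without overlap. For *eif3h.L* the values were 98.9 and 90.6 with Gcn5-AS against 80.9 and 55.1 in controls (log2 fold change of 0.46 ± 0.38 SE). The S homeolog had 173.8 and 49.5 with Gcn5-AS against 82.0 and 48.4 in controls, and this difference rested on Gcn5-AS X. Its log2 fold change was 0.53 (adjusted limma-voom p of 0.531), but −0.41 without Gcn5-AS X and 1.39 without Gcn5-AS Y. The large subunit gene *eif3a* had the highest counts of the group. Its L homeolog had 653 and 402 with Gcn5-AS against 462 and 406 in controls, and its S homeolog 410.1 and 240.1 with Gcn5-AS against 417 and 275.7 in controls. Both homeologs overlapped between groups and varied more between Gcn5-AS X and Y than between groups. At *eif3e*, a regulatory subunit gene, the groups overlapped as well, with 23.4 and 45.8 with Gcn5-AS against 26.8 and 43.0 in controls for L and 19.2 and 18.7 with Gcn5-AS against 16.1 and 20.2 in controls for S, and the small S difference turned negative with scaling by total reads or by reads outside the 10 most abundant models.

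**Figure D2:**
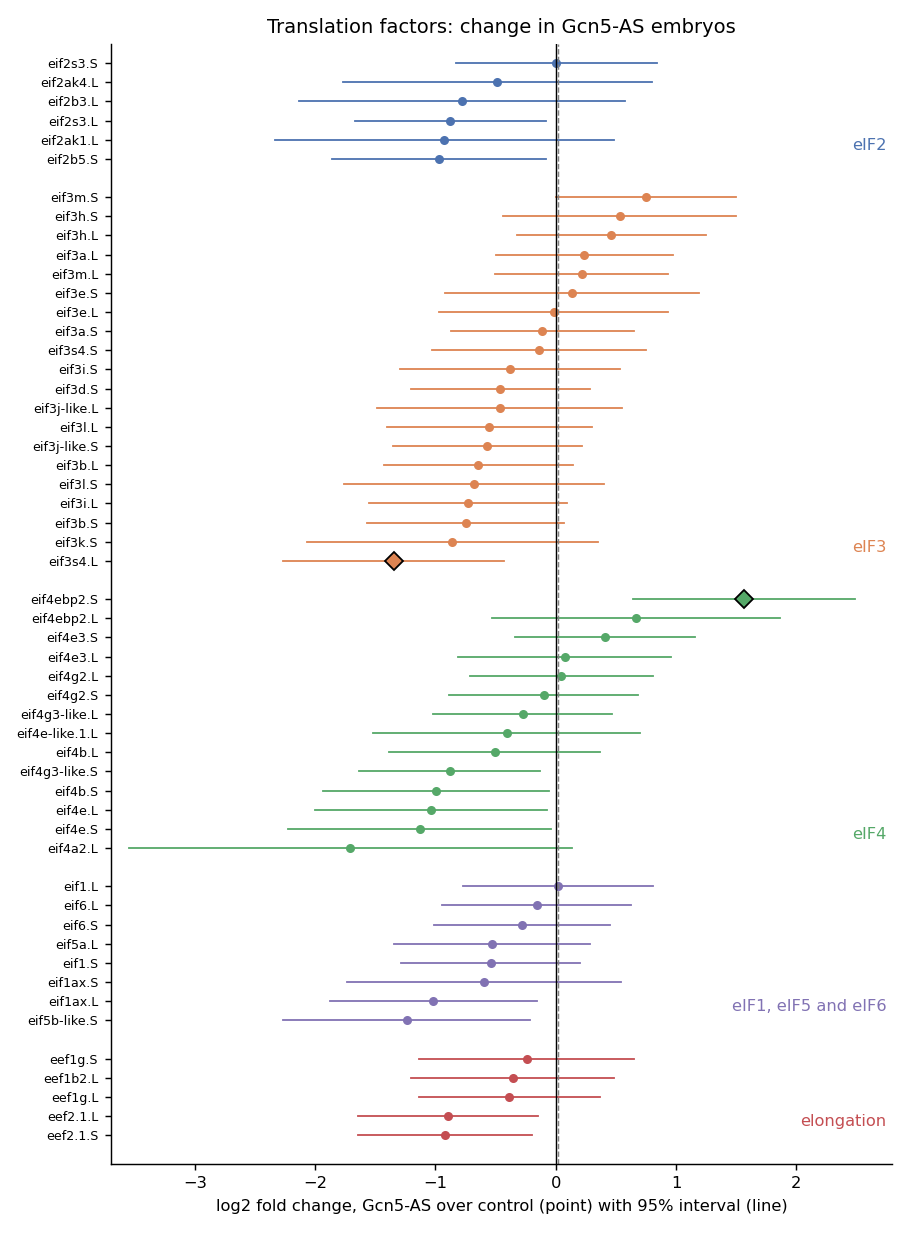
Log2 fold change (Gcn5-AS over control, x axis) with 95% intervals for every measured translation factor model, by group and colour. Large diamonds mark the 2 models called at a false discovery rate of 0.1 (*eif4ebp2.S* and *eif3s4.L*), the solid line is 0 and the dashed line the median of all models tested. Intervals of 40 of the 53 models include 0.

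The cap-binding machinery of eIF4 went both ways. Of its 15 models 14 were measured, 9 lower and 5 higher, and their median log2 fold change was −0.34. The called model was *eif4ebp2.S*, which encodes a binding protein that holds eIF4E away from the scaffold eIF4G and so represses cap-dependent initiation until mTOR kinase phosphorylates it. Normalized reads of *eif4ebp2.S* were 58.4 and 65.4 in Gcn5-AS libraries, from 85 and 70 reads, against 21.4 and 18.8 in controls, from 40 and 14 reads. Both Gcn5-AS libraries were well above both controls, and the transcript rose 2.96-fold (log2 fold change of 1.57, 95% interval from 0.64 to 2.49, adjusted limma-voom p of 0.0464). The log2 fold change stayed between 1.49 and 1.67 when any 1 library was left out. The adjusted p was 0.571 without control X, where only 0.727% of all models were called, 0.222 without control Y (2.22% called), 0.309 with scaling by total reads (1.69% called) and 0.107 with scaling by reads outside the 10 most abundant models (7.01% called). The L homeolog had 22.0 and 13.1 with Gcn5-AS against 10.2 and 13.4 in controls, where Gcn5-AS Y lay between the controls. With the reads of both homeologs summed, *eif4ebp2* had 80.4 and 78.5 with Gcn5-AS against 31.6 and 32.3 in controls (log2 fold change of 1.31, adjusted limma-voom p of 0.0787).

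The cap-binding protein eIF4E itself, the target of this repressor, had lower values at both homeologs. Normalized reads of *eif4e.L* were 17.2 and 19.6 in Gcn5-AS libraries against 40.7 and 33.6 in controls, and those of *eif4e.S* were 8.93 and 25.2 with Gcn5-AS against 30.0 and 32.3 in controls. The groups did not overlap at either homeolog, with log2 fold changes of −1.04 ± 0.47 and −1.13 ± 0.53 (SE), but neither was called (adjusted limma-voom p of 0.195 and 0.21). The S difference was smaller without Gcn5-AS X (−0.28). The related cap-binding gene *eif4e3* differed from this. The gene *eif4e3.S* had 666 and 755 with Gcn5-AS against 403 and 701 in controls, with overlap, and *eif4e3.L* 50.2 and 35.5 with Gcn5-AS against 32.7 and 55.1 in controls, a difference whose sign flipped with scaling by total reads. The model *eif4e-like.1.L* had 12.4 and 16.8 with Gcn5-AS against 16.6 and 24.2 in controls and overlapped as well. Its log2 fold change was below 0, like that of *eif4e* (−0.41, adjusted limma-voom p of 0.692).

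Among the other eIF4 members, *eif4g2* encodes a scaffold without the eIF4E-binding site of eIF4G. It had 730.3 and 377 normalized reads in Gcn5-AS libraries against 481 and 533 in controls for the L homeolog, and 474 and 246.6 with Gcn5-AS against 464 and 289.1 in controls for S. Gcn5-AS X was high and Gcn5-AS Y low at both homeologs, and at *eif4g2.S* control X was also above control Y. The group difference was near 0 at both homeologs, with a sign at *eif4g2.L* that flipped with scaling by total reads. The scaffold model *eif4g3-like.S* had 72.8 and 71.9 with Gcn5-AS against 131.9 and 135.8 in controls, with little spread within either group (log2 fold change of −0.88 ± 0.37 SE, adjusted limma-voom p of 0.157). Its L homeolog had 123.7 and 97.1 with Gcn5-AS against 126.5 and 141.2 in controls. The helicase gene *eif4a2.L* had 2.06 and 9.34 with Gcn5-AS against 12.3 and 17.5 in controls, the lowest log2 fold change of any measured factor (−1.71), with an interval from −3.55 to 0.13. This value rested on 3 reads in Gcn5-AS X, and without that library it was −0.51. The gene *eif4b*, whose product stimulates this helicase, had 21.3 and 19.6 with Gcn5-AS against 46.1 and 35.0 in controls for S and 39.2 and 37.4 with Gcn5-AS against 71.3 and 37.7 in controls for L. The adjusted limma-voom p was 0.202 for *eif4b.S* and 0.506 for *eif4b.L*, and the L difference rested on control X.

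**Figure D3:**
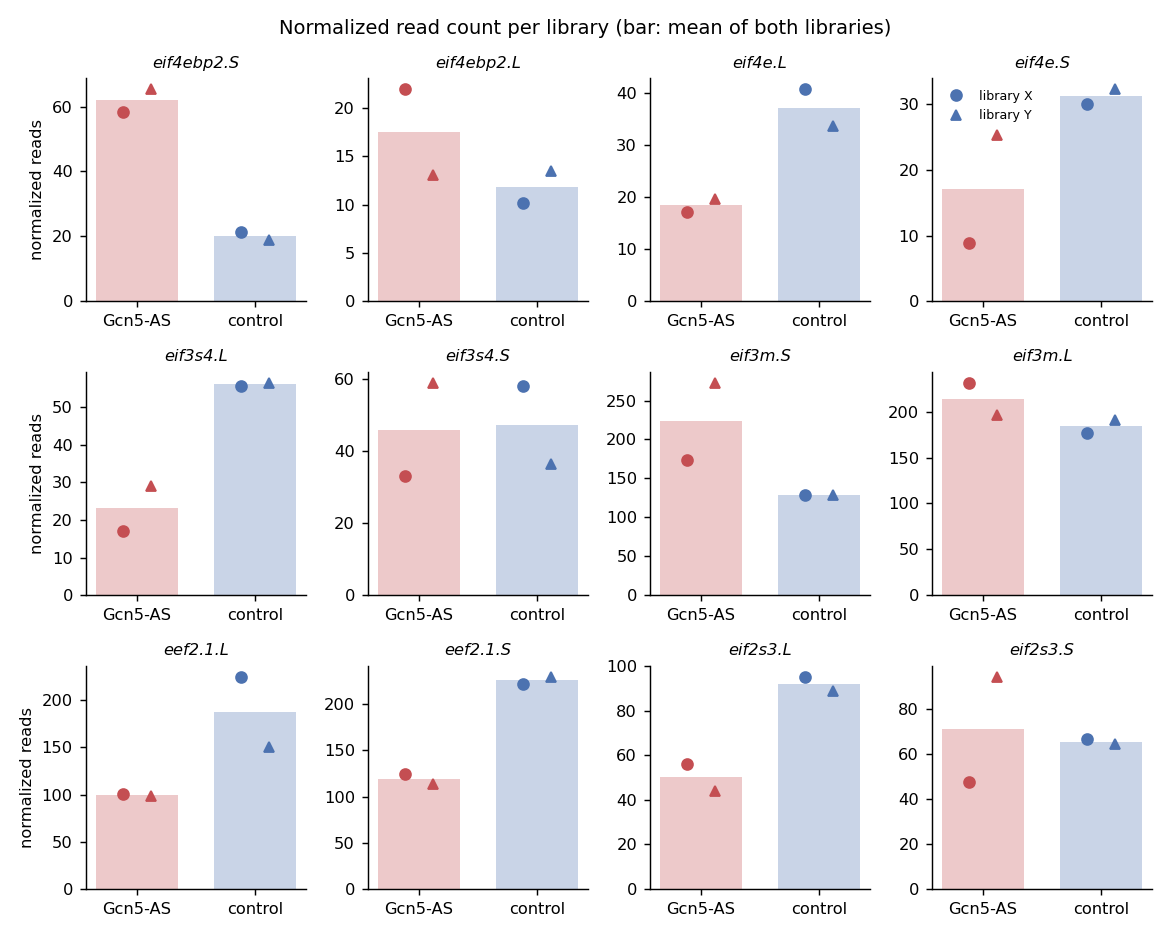
Normalized reads per library (y axis, linear from 0) for 12 models, Gcn5-AS left of control, with circles for library X, triangles for library Y and bars for the mean of both. The repressor *eif4ebp2.S* is above both controls in both Gcn5-AS libraries, and *eif4e.L*, *eif4e.S*, *eif3s4.L*, *eif2s3.L* and both *eef2.1* homeologs are below both controls.

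Of the 11 models for eIF1, eIF5 and eIF6 8 were measured, 7 of them lower, with a median log2 fold change of −0.54. None was called by limma-voom or limma-trend. Over all models tested 10.2% were lower at an unadjusted limma-voom p under 0.05, and here 2 of the 8 were. The first of these was *eif5b-like.S*, for the GTPase that joins the ribosomal subunits, with 11.7 and 20.5 normalized reads in Gcn5-AS libraries against 37.0 and 33.6 in controls (log2 fold change of −1.24 ± 0.50 SE, adjusted limma-voom p of 0.145). The other was *eif1ax.L*, for eIF1A, which helps the ribosome scan for the start codon, with 26.8 and 43.9 with Gcn5-AS against 75.6 and 60.5 in controls (log2 fold change of −1.02 ± 0.42 SE, adjusted limma-voom p of 0.155). Both were called without Gcn5-AS Y (adjusted p of 0.0926 and 0.0565), a setting in which 20.0% of all models were called. The S homeolog *eif1ax.S* had 11.7 and 14.0 with Gcn5-AS against 17.2 and 24.2 in controls, also without overlap. The gene *eif5a.L*, for the hypusine-bearing factor that helps ribosomes past difficult peptide bonds, had 41.9 and 65.4 with Gcn5-AS against 76.7 and 72.6 in controls (adjusted limma-voom p of 0.447). Differences were smaller at *eif6*, which keeps free large subunits from joining, with 60.5 and 76.6 with Gcn5-AS against 69.2 and 84.7 in controls for L and 126.4 and 115.8 with Gcn5-AS against 150.1 and 143.9 in controls for S. At *eif1*, a start codon fidelity factor, the S homeolog had 125.7 and 160.7 with Gcn5-AS against 251 and 168.1 in controls, and the L homeolog 109.2 and 117.7 with Gcn5-AS against 151.7 and 78.0 in controls.

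All 5 measured elongation models of 11 were lower, with a median log2 fold change of −0.39, and stayed lower under each scaling. None was called by limma-voom or limma-trend, while *eef2.1.S* was called with scaling by upper quartile or by reads outside the 10 most abundant models (adjusted p of 0.0984 and 0.0952, with 8.81% and 7.01% of all models called). The translocase eEF2 is encoded by *eef2.1*. Its L homeolog had 101 and 98.1 normalized reads in Gcn5-AS libraries against 225.2 and 150.6 in controls. Its S homeolog had 124.3 and 114.0 with Gcn5-AS against 221.9 and 230.0 in controls. The Gcn5-AS values of each homeolog were close to each other and below both controls, with log2 fold changes of −0.90 ± 0.36 and −0.92 ± 0.35 (SE, adjusted limma-voom p of 0.151 and 0.127). With both homeologs summed, *eef2.1* had 225.3 and 212.0 with Gcn5-AS against 447 and 380.6 in controls (log2 fold change of −0.91, adjusted p of 0.124).

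The eEF1 subunits lay nearer to the controls. The subunit gene *eef1g*, part of the exchange complex of eEF1A, had 92.1 and 128.0 normalized reads in Gcn5-AS libraries against 129.2 and 156.0 in controls for L, and 50.2 and 33.6 with Gcn5-AS against 64.3 and 33.6 in controls for S. The exchange factor gene *eef1b2.L* had 65.3 and 164.4 with Gcn5-AS against 113.1 and 154.7 in controls, so that its 2 Gcn5-AS libraries differed more from each other than the group means did, and its log2 fold change turned to 0.33 without Gcn5-AS X. The sign at *eef1g.S* also changed when 1 library was left out, with a highest value of 0.28. The adjusted limma-voom p of these 3 models lay between 0.561 and 0.779. The paralog *eef1a2*, an eEF1A form of adult muscle and nerve in mammals, had 1 read in all, at the S homeolog in Gcn5-AS X. A count of 0 allows up to 3 reads in a library. The eEF2 kinase gene *eef2k* and the second eEF2 locus *eef2.2* had at most 5.50 normalized reads in any library. No model carried the name of the main eEF1A genes *eef1a1* and *eef1a1o*. The same held for initiation factor genes such as *eif2s1*, *eif2s2*, *eif4a1*, *eif4g1* and *eif5*. All of these were therefore not analysed here.

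In all, 19 of the 72 models stayed below the mean count of 10, 2 of them without a read (*eef1a2.L* and *eif2b4.S*). Beside the eIF2 and elongation models named above they were *eif1ad.L*, *eif3k.L*, *eif4e-like.1.S*, *eif5a.S* and *eif5b-like.L*. Just below the limit were *eif3k.L* (mean count of 9.98) and *eif2b1.L* (7.65), and just above it *eif4a2.L* (10.3) and *eif2ak1.L* (11.7). Among these, *eif3k.L* had 9.62 and 5.604 normalized reads in Gcn5-AS libraries against 13.9 and 10.8 in controls.

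*X. laevis* is allotetraploid, and 21 factors had both an L and an S homeolog measured. In 16 of these pairs both homeologs had the same sign, 12 lower and 4 higher. The share of 76.2% compares with 73.8% over all 2286 measured pairs. Across the 21 pairs the log2 fold changes of L and S had a Pearson r of 0.69 and a Spearman rho of 0.67, against 0.63 and 0.64 over all pairs. All points share the same 4 libraries, and reads of near-identical homeologs may have been split uncertainly. The pairs lower at both homeologs were *eef1g*, *eef2.1*, *eif1ax*, *eif3b*, *eif3i*, *eif3j-like*, *eif3l*, *eif3s4*, *eif4b*, *eif4e*, *eif4g3-like* and *eif6*, and those higher at both were *eif3h*, *eif3m*, *eif4e3* (its L homeolog lower with scaling by total reads) and *eif4ebp2*.

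To compare homeologs directly, the log2 ratio of L to S reads within each library was tested by limma over the 2286 pairs, a test that was chosen after seeing the data and does not depend on scaling. None of the 21 pairs was called, against 0.394% of all pairs. At an unadjusted limma p under 0.05 there was 1 of the 21, against 249 of all 2286 pairs. The 1 factor pair was *eif3s4*, where the L to S ratio was lower in Gcn5-AS embryos by a log2 difference of −1.26 (95% interval from −2.28 to −0.23, adjusted limma p of 0.37). The called decrease of *eif3s4.L* is therefore not shown to differ from its S homeolog. For *eif4ebp2* the log2 difference was −1.08, with an interval from −2.35 to 0.20 (adjusted p of 0.546), and for *eif2s3* it was −0.91, from −2.01 to 0.19 (adjusted p of 0.559). The 2 eEF2 homeologs had a difference of 0.04, with an interval from −0.76 to 0.83.

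**Figure D4:**
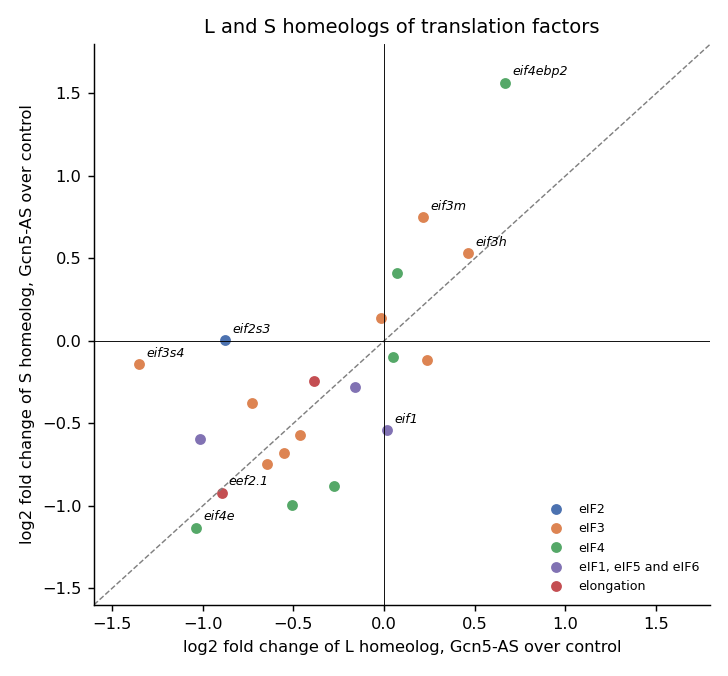
Log2 fold change (Gcn5-AS over control) of the L homeolog (x axis) against that of the S homeolog (y axis) for the 21 translation factor pairs with both measured. Points are coloured by group and the dashed line marks equal values. Both homeologs are lower in 12 pairs and higher in 4, and *eef2.1* lies on the line.

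Genes that act with these factors were listed by function, with earlier results of these data known. Their counts stand against the shares over all models tested, of which 49.0% were lower and 8.63% were called. The counts describe these lists and do not test them. Of 12 measured models for scanning, recycling and termination 11 were lower, with a median log2 fold change of −0.70. In this list *ddx3x.S*, for an RNA helicase that helps scanning, fell to 67.3 and 137.3 normalized reads in Gcn5-AS libraries, against 267.0 and 311 in controls (log2 fold change of −1.59, adjusted limma-voom p of 0.0221). Its L homeolog was lower but not called (−0.75, adjusted limma-voom p of 0.21). The ubiquitin ligase gene *ltn1.L*, which acts on stalled ribosomes, fell to 41.2 and 33.6 with Gcn5-AS, against 172.1 and 78.0 in controls (−1.66, adjusted p of 0.0293). Of 8 measured models for eIF2 phosphatases and other genes of the stress response 4 were lower and 4 higher. The 2 called ones were the homeologs of *gcn1l1*, whose product activates the eIF2 kinase Gcn2 in yeast and mammals. That product is neither a phosphatase nor a stress response target, and no other model of this list was called. Normalized reads of *gcn1l1.L* were 37.8 and 34.6 with Gcn5-AS against 111.5 and 95.5 in controls, and those of *gcn1l1.S* were 57.0 and 55.1 with Gcn5-AS against 140.5 and 108.9 in controls (log2 fold changes of −1.51 and −1.15, adjusted limma-voom p of 0.031 and 0.0809).

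Of 12 measured models upstream of cap binding in the mTOR pathway 1 was called, near the share over all models. The kinase gene *mtor.L* fell to 22.7 and 30.8 normalized reads in Gcn5-AS libraries, against 68.1 and 63.2 in controls (log2 fold change of −1.32, adjusted limma-voom p of 0.0737), while 7 of the 12 were higher and the list median was 0.08. Of 11 models for poly(A)-binding proteins and their partners *larp4.S* fell to 17.2 and 36.4 with Gcn5-AS, against 72.4 and 92.8 in controls (−1.72, adjusted p of 0.0293), and the list median was 0.02. Of 15 models for translational repressors of oocytes and eggs 9 were higher, with a median of 0.61. There *lsm14b.L*, for a protein of stored maternal messenger particles, rose to 778 and 640 normalized reads with Gcn5-AS, against 215.5 and 255.5 in controls (1.59, adjusted p of 0.0138), and *cpeb3.S*, for an RNA-binding regulator of polyadenylation, rose to 35.0 and 38.3 with Gcn5-AS, against 9.11 and 18.8 in controls (1.69, adjusted p of 0.0654). The helicase gene *ddx6.L* of the same particles fell to 30.2 and 29.0 with Gcn5-AS, against 84.2 and 71.3 in controls (−1.39, adjusted p of 0.0534). The L homeolog of *cpeb3* was higher but not called (1.22, adjusted limma-voom p of 0.118). Neither the 3 measured models for enzymes that modify elongation factors nor the 3 for mitochondrial translation factors had a call by limma-voom, and none of these 6 had an unadjusted p under 0.05.

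A change of library scaling shifts the log2 fold changes as a whole, by amounts that differ between models. With scaling by total reads *eif3k.S* went from −0.86 to −0.90 and *eif4ebp2.L* from 0.67 to 0.36. The medians of the factors and of all models moved nearly together, so their difference is no check of the scaling. Scaling by total reads moved the median log2 fold change of all models by −0.17 and that by reads outside the 10 most abundant models by −0.21, and the median of the factors minus that of all models was −0.46 in both, against −0.48 with the size factors recovered from the deposited means. The same difference was −0.39 or −0.68 when Gcn5-AS X or Y was left out, and −0.40 or −0.46 when control X or Y was left out. In this order 1, 5, 0 and 0 factors were called, where 2.47%, 20.0%, 0.727% and 2.22% of all models were called.

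**Figure D5:**
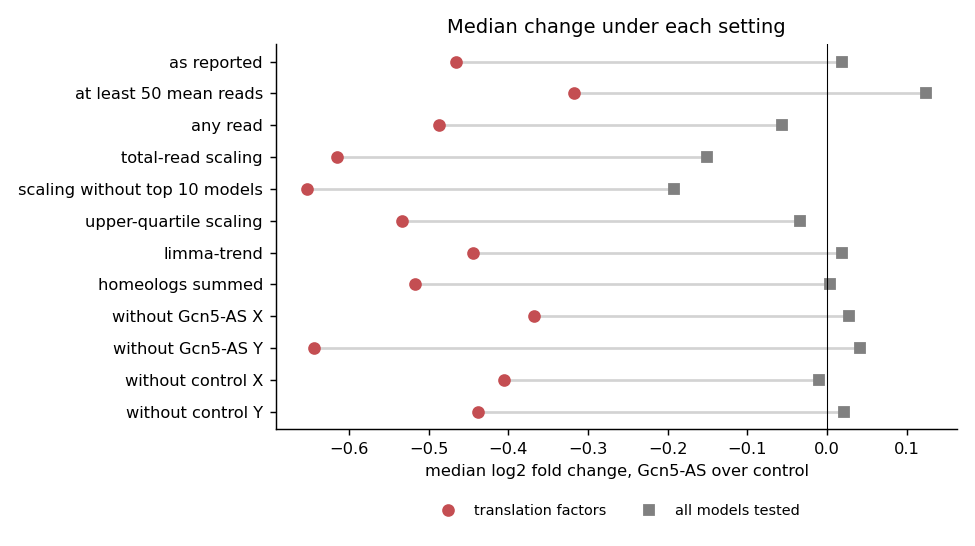
Median log2 fold change (Gcn5-AS over control, x axis) of the translation factors (circles) and of all models tested (squares) under each setting (y axis). The circle lies left of the square in every setting shown. Circles run from −0.65 with scaling by reads outside the 10 most abundant models to −0.32 for models with at least 50 mean reads. A change of scaling moves circle and square nearly together.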

How the data were processed

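RNA was sequenced from 2 Gcn5-AS and 2 control samples, grouped by their titles. The treatment protocol in the labels of the control samples repeats the Gcn5-AS injection. Their titles say water-injected, and the titles were followed. Per the labels, the authors depleted ribosomal RNA, primed with random hexamers, and mapped single-end reads of 75 bases with STAR to genome JGI 9.1, allowing 1 mismatch. The read counter, annotation release and strand setting are not given in the sources read, so overlapping and antisense genes may share reads. The authors deposited mean signal columns per group, which are read counts divided by DESeq size factors and averaged over both libraries. The same table holds their own fold changes, p-values and adjusted p-values, which were not used.

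A deposited mean averages 2 libraries after division by their size factors. Solving for whole reads gave a single answer for all 21410 Gcn5-AS and all 21721 control means above 0 (relative tolerance of 3e-14). On simulated means 100% were recovered. The size factors were 1.46 and 1.07 for Gcn5-AS X and Y and 1.87 and 0.744 for control X and Y, with X the larger of each group. Models averaging 10 or more normalized reads were fitted with limma 3.58.1 (voom, lmFit, eBayes) in R 4.3.3 using these factors, two-sided. No negative binomial count model was run. The fit was tested on simulated counts with a dispersion of 0.075, where 15 of 10730 unchanged models were called. These stood beside 14 and 73 calls of models set to change by 1 and 2. The false share of the calls was thus above the nominal 0.1 in this simulation. In the homeolog ratio, 0.5 was added to each count, and its simulation found 5 of 100 pairs at a log2 difference of 1 and 50 of 100 at 2. Read totals limit the precision of low counts, since reads without molecular identifiers may repeat 1 molecule.

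All members are described by group, with every called one, and up to 3 called models of each related list with the smallest p. The uncalled homeologs of *ddx3x.S* and *cpeb3.S* are given beside them. The members and lists were chosen with earlier results of these data known. Of the 41 names 35 matched a symbol or synonym in the RefSeq gene table, which was used for names only, since its assembly differs. Alternatives were other thresholds, filters, scalings, limma-trend on log2(normalized count + 1), summed homeologs and leaving out libraries. Other steps used pandas 2.3.3 and numpy 2.4.6 in Python 3.11.15.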

Additional observations from a re-analysis of the deposited data

How the results depend on the processing

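Values below are log2 fold changes (Gcn5-AS over control) or counts of factors called. The main comparison called 2 factors (8.63% of all models). There was 1 with any read (3.18%), 0 with total-read scaling (1.69%) and 1 with homeologs summed (7.18%). At a false discovery rate of 0.05 there was 1, and the share over all models was not counted. Among models with at least 50 mean reads there were 0 (11.4%). Both called factors have means under 50 (41.0 and 39.6), so neither entered that setting. In the eIF3 group the call was lost (0) in all 5 of these settings, and with at least 50 mean reads this came from the filter alone. In the eIF4 group it was lost (0) with at least 50 mean reads (through the filter alone), total-read scaling and scaling by reads outside the 10 most abundant models. In the elongation group 1 was called under the last of these and under upper-quartile scaling (7.01% and 8.81% of all models called). Without 1 library the calls varied as well, and those over all factors are given above beside the shares over all models. No median changed sign. With at least 50 mean reads, total-read scaling and scaling outside the 10 most abundant models, in this order, the medians were −0.32, −0.61 and −0.65 over all factors, −0.44, −1.01 and −1.06 for eIF2, −0.11, −0.57 and −0.63 for eIF3, −0.10, −0.52 and −0.56 for eIF4, and −0.64, −0.53 and −0.58 for elongation. It was −0.50 for eIF4 with homeologs summed and −0.73 for eIF1, eIF5 and eIF6 with scaling outside the 10 most abundant models. Leaving out 1 library gave medians from −0.64 to −0.37 over all factors, −0.97 to −0.61 for eIF2, −0.50 to −0.28 for eIF3, −0.44 to −0.30 for eIF4, −0.71 to −0.36 for eIF1, eIF5 and eIF6 and −0.86 to −0.56 for elongation. Fewer models enter the stricter filter. The cause of the other changes was not tested. Signs flipped only for factors that the main comparison did not call. With total-read scaling, scaling outside the 10 most abundant models and upper-quartile scaling *eif1.L* was at −0.10, −0.18 and −0.049, and *eif2s3.S* at −0.13, −0.20 and −0.059 (−0.021 with at least 50 mean reads). With the first and second of these *eif3e.S* was at −0.093 and −0.11, *eif4e3.L* at −0.15 and −0.16 (−0.0096 by limma-trend) and *eif4g2.L* at −0.094 and −0.14. From the group means with 0.1 added, *eif1.L* was at −0.018 and *eif4e3.L* at −0.036. Without 1 library, signs flipped in *eef1b2.L* −0.996 to 0.33, *eef1g.S* −0.63 to 0.28, *eif1.L* −0.42 to 0.53, *eif2s3.S* −0.47 to 0.52, *eif3a.L* −0.11 to 0.59, *eif3a.S* −0.50 to 0.26, *eif3e.L* −0.45 to 0.51, *eif3e.S* −0.10 to 0.25, *eif3h.S* −0.41 to 1.39, *eif3k.S* −1.68 to 0.30, *eif3s4.S* −0.55 to 0.29, *eif4b.L* −0.89 to 0.013, *eif4e3.L* −0.38 to 0.38, *eif4g2.L* −0.42 to 0.53, *eif4g2.S* −0.58 to 0.36, *eif6.L* −0.32 to 0.024. The lone sample is then assumed to vary like the others. No paired analysis was possible because the recovered libraries carry no replicate numbers. The 10 most abundant models took 36.0% and 50.2% of reads in Gcn5-AS X and Y, against 40.3% and 49.6% in control X and Y, but a pairing read from such values was not fitted. Depth limits factors with few reads most.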
